A study of Homo sapiens with 8 samples.

Results

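The regions described are the ATAC-seq peaks whose midpoint lay within 5 Mb of the centromere point of chromosomes 1 to 22, in human RPE-1 cells held in mitosis with or without Plk1 activity. ATAC-seq uses the transposase Tn5 to insert sequencing adapters into accessible DNA, and a peak is a stretch with more insertions than its background. The centromere point is a single position per chromosome in GRCh38 (for example 35.5 Mb on chromosome 12 and 28.1 Mb on chromosome 20), and peaks were chosen by position alone. They numbered 49384 over the 8 deposited peak lists, which is 3.22% of the 1534462 peaks on chromosomes 1 to 22. The 22 windows made up 220 Mb, or 7.66% of the sequence.

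All 8 libraries came from hTERT RPE-1 Plk1-/- EGFP-Plk1as cells. hTERT RPE-1 is a human epithelial line immortalised with telomerase, and in this derivative endogenous Plk1 is absent and an EGFP-tagged, analog-sensitive Plk1 takes its place. Asynchronous cells were held for 16 h in 5 µM STLC, a kinesin-5 inhibitor that arrests cells in prometaphase, and mitotic cells were collected by shake-off. They then received DMSO at 0.5% (4 libraries) or 3MB-PP1 at 10 µM (4 libraries), a purine analog that inhibits the analog-sensitive kinase, for 2 h with STLC still present. The study asked how Plk1 activity bears on the accessibility of mitotic chromosomes. Every group therefore carried the same deletion, transgene and STLC arrest, and the study had no library with wild-type Plk1 or from interphase cells among those analysed here. The labels call the 4 libraries of a group biological replicates of this single cell line.

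Centromeres are built on long arrays of alpha satellite repeats, on which the kinetochore assembles and where Plk1 is enriched in early mitosis. The flanking pericentromere holds further satellites, segmental duplications, pseudogenes and gene families such as zinc finger, olfactory receptor and POTE genes, and much of it is constitutive heterochromatin. The short arms of chromosomes 13, 14, 15, 21 and 22 also carry the ribosomal RNA genes. Many of these sequences exist in near-identical copies, so that the position of a peak in them is uncertain, and how reads that match several copies were placed is not given in the sources used here.

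The sequences below are 250 bases upstream of RefSeq starts (GRCh38.p14) inside the windows, and were chosen to show what differed between promoters under a peak and promoters without one. GZF1 (chr20:23361932-23362181, plus strand), ROCK1 (chr18:21111814-21112063, minus strand), PARP2 (chr14:20343385-20343634, plus strand) and ZNF33A (chr10:38010425-38010674, plus strand) were overlapped by a peak in all 8 lists. ZNF208 (chr19:22010944-22011193, minus strand) was overlapped in the 4 3MB-PP1 lists and in no DMSO list. POTEM (chr14:18967184-18967433, plus strand) and the olfactory receptor gene OR4A47 (chr11:48488543-48488792, plus strand) had no peak in any list. Capitals mark the motifs searched on both strands, namely the GC box GGGCGG, the CCAAT box CCAAT and the TATA box TATAAA, with overlapping matches joined.
GZF1: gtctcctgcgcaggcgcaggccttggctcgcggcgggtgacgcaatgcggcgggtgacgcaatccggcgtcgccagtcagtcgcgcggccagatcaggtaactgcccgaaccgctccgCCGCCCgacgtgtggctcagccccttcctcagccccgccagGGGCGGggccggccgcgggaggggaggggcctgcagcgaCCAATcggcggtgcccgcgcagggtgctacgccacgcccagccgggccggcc
ROCK1: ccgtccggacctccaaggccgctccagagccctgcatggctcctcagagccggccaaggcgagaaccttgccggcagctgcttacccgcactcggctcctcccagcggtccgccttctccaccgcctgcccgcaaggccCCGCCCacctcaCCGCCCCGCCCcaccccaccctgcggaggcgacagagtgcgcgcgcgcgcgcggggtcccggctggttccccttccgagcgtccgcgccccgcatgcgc
PARP2: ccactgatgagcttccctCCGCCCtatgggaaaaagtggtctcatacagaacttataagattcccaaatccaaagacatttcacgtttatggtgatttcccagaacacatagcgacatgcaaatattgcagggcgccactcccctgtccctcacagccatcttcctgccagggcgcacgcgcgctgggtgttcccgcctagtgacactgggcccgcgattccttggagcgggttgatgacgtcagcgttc
ZNF33A: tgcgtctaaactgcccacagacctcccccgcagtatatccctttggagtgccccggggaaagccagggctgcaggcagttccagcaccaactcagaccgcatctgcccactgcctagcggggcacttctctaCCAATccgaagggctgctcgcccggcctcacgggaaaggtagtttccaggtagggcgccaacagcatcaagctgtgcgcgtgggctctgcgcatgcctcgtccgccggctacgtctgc
ZNF208: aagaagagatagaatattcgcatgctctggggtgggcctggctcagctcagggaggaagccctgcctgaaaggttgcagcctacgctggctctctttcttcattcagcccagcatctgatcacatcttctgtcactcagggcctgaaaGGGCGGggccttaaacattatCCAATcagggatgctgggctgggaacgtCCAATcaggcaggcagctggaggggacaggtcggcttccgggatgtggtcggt
POTEM: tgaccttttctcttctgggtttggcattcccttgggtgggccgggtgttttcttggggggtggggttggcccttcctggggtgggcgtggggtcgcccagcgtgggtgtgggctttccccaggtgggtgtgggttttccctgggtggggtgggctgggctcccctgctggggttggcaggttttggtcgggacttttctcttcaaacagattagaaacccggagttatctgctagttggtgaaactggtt
OR4A47: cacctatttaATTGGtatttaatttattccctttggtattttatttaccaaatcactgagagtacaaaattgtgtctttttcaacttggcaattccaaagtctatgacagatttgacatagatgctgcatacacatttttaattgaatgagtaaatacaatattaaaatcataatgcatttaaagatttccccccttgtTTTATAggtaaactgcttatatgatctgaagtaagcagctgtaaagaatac
The GC content of these stretches was 76.4% for GZF1, 75.6% for ROCK1, 54.4% for PARP2 and 63.6% for ZNF33A, against 56.8% for ZNF208, 59.6% for POTEM and 29.2% for OR4A47. CpG dinucleotides numbered 35, 31, 14 and 17 in the 4 promoters under a peak in every list, 7 in ZNF208, 6 in POTEM and 0 in OR4A47. A motif match describes these letters only and does not show that a factor binds there.

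Of 33725 autosomal RefSeq promoters of 250 bases before and 50 after the start, 1372 (of 1101 genes) lay in the windows, and 10 of the 12 genes named individually below were matched. TPX2 and PIP4P1 were not. A peak overlapped 28.2% of the window promoters in all 8 lists, against 39.5% of all promoters, and no list had a peak at 43.2% of the window promoters, against 32.2% in the rest of the arms. The promoters in the windows were somewhat poorer in GC boxes, which 37% held against 42.7% of all promoters. TATA boxes were found in 13.6% against 10.7%, and CCAAT boxes in 32% against 31.8%. Within the windows the split by accessibility was wider than that by location. The GC box was present in 69% of promoters with a peak in all 8 lists and in 13.3% of those with none, and the median ratio of observed to expected CpG was 0.840 and 0.210. The same pair of values in the rest of the arms was 0.842 and 0.227, so promoters with and without peaks differed in CpG by much the same amount at both locations. No window promoter was covered in all 4 DMSO lists and no 3MB-PP1 list (0.107% of all promoters), and 1 of 1372, that of ZNF208, was covered in the reverse pattern (0.0801% of all promoters).

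As facts of the whole series, the lists held 149172 to 250548 autosomal peaks each, and read depth is unknown because the lists carry no read totals. The cell line's marker genes KRT8, KRT18, VIM, CDH2, MITF and OTX2 had a peak within 1 kb of a gene end in 8 of 8 lists. Of the blood genes, PTPRC had such a peak in 0 lists, LYZ in 4, and CD3E and SPI1 in 8, so a peak near a gene end is not by itself a sign of the cell type. Libraries with odd replicate numbers stood apart from those with even numbers in both treatments, in the share of peaks and of covered length that lay in the windows.

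The windows held fewer peaks per Mb than the rest of each list in all 8 libraries. In DMSO replicates 1 to 4 the windows held 25.1, 19.3, 31.6 and 26.3 peaks per Mb, and the rest of the arms held 54.1, 57.6, 71.3 and 72.3. With 3MB-PP1 the windows held 35.3, 23.4, 44.5 and 18.9 peaks per Mb and the rest 76.8, 74.3, 90.7 and 62.4. No library had a window density near that of its arms. The density in the windows was 0.390 times that of the rest of the arms on average (range 0.303 to 0.491 over 8 libraries), a log2 ratio of -1.36 ± 0.28 (SD, n = 8; exact two-sided sign-flip permutation test p = 0.0078, adjusted p = 0.0104 over 4 location measures). This p is the smallest that 8 libraries allow. The libraries share 1 genome and 1 cell line, so this test, here and below, concerns only how repeatable a difference was over libraries. Long stretches of the windows held no peak: the longest stretch without a peak in any of the 8 lists ran from 1.82 Mb on chromosome 6 to 6.13 Mb on chromosome 14, with a median of 3.16 Mb. All 220 Mb of the windows were counted in these densities. Stretches without reference sequence, or where reads cannot be placed, were not told apart from other stretches without a peak. Counted only over 100 kb bins that held a peak in some list (126.2 Mb of the windows and 2551.8 Mb of the rest), the log2 ratio was smaller at -0.61, still with the windows below the rest.

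**Figure D1:**
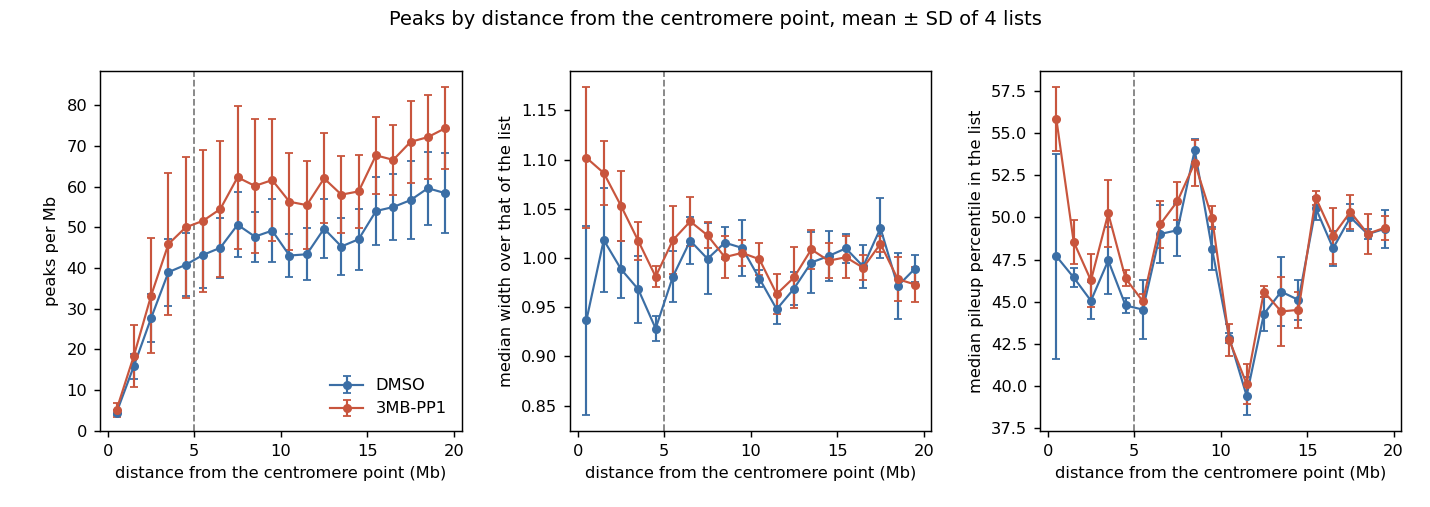
Peaks per Mb, relative median width, and median pileup percentile in 1 Mb bins of distance from the centromere point on the x axis. Values are mean ± SD of 4 libraries per treatment, and the dashed line marks the 5 Mb limit. Width is relative to the median of the rest of the arms, although the axis label names the list. Peak density climbs from 4.52 per Mb in the first bin to 40.8 per Mb in the fifth in DMSO, and the group means of relative width lie farther apart within the limit than beyond it.

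Peaks became more frequent with distance from the centromere point. In DMSO the density was 4.52 ± 0.558 peaks per Mb (SD, n = 4) at 0 to 1 Mb, 15.9 ± 3.09 at 1 to 2 Mb, 27.7 ± 5.86 at 2 to 3 Mb, 39.0 ± 8.20 at 3 to 4 Mb and 40.8 ± 7.76 at 4 to 5 Mb. The 3MB-PP1 libraries ran from 5.19 ± 1.68 at 0 to 1 Mb to 50.0 ± 17.3 at 4 to 5 Mb. Just outside the limit, at 5 to 6 Mb, the values were 43.2 ± 8.02 and 51.6 ± 17.5, so the limit cuts through a gradient and not at a step. The densities of the 2 groups overlapped in each of the 20 bins.

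The low density was shared by most chromosome arms. Of 40 arms with a value, 38 had fewer peaks per Mb in the window than in the rest of the arm in all 8 libraries. The long arm of chromosome 2 was mixed, at 0.878 to 1.64 times the rest of its arm. The short arm of chromosome 21 was the reverse, at 9.94 to 13.1 times, but the rest of that short arm held only 21 to 33 peaks per library. The short arm of chromosome 14 and the long-arm side of the window of chromosome 16 held no peak in any library. Outside the windows, the short arms of chromosomes 13, 14, 15 and 22 held no peak either, so these arms had no value. By chromosome, the windows with the most peaks were those of chromosome 12 (mean 68.0 per Mb), 20 (67.5) and 2 (43.4), and those with the fewest were 16 (6.59), 3 (8.94) and 15 (10.7). The part of absent or unplaceable reference sequence in these values was not tested.

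**Figure D2:**
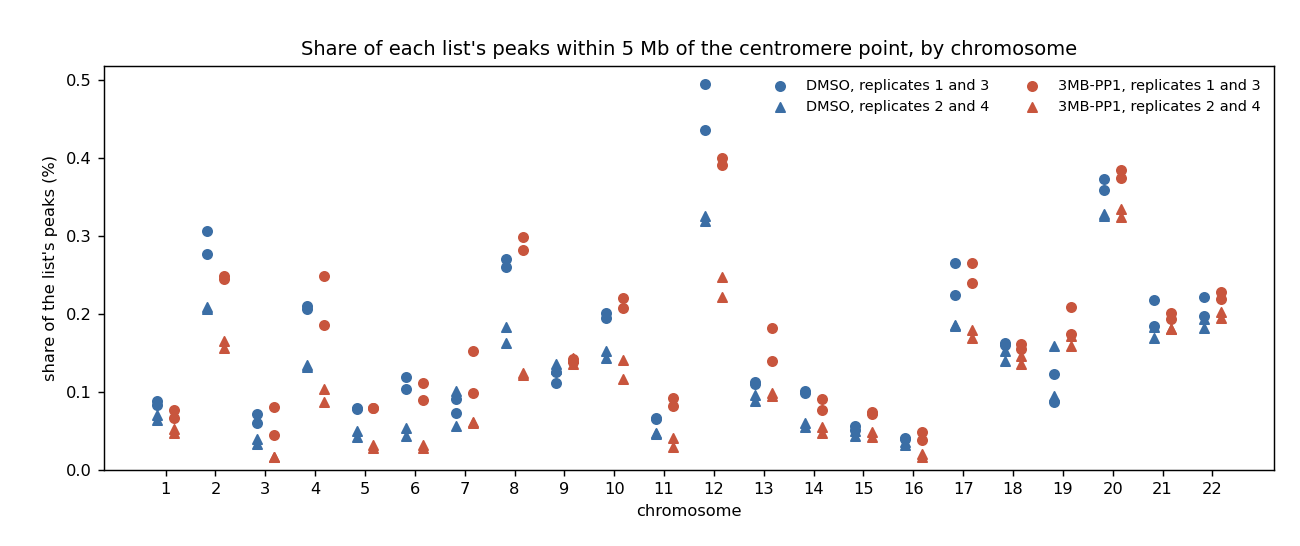
Share of each list's autosomal peaks (y axis, percent) that lay in the window of each chromosome (x axis), 1 symbol per library, with circles for replicates 1 and 3 and triangles for replicates 2 and 4. The windows of chromosomes 12 and 20 hold the largest shares, many chromosomes split by odd and even replicate number, and chromosome 19 is the window where all 3MB-PP1 libraries lie above all DMSO libraries.

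With Plk1 inhibited, neither the number nor the share of pericentromeric peaks differed beyond the spread between libraries. The windows held 5522, 4243, 6959 and 5785 peaks in DMSO replicates 1 to 4 and 7762, 5158, 9793 and 4162 with 3MB-PP1. Both the highest and the lowest count came from 3MB-PP1 libraries, and the groups overlapped. The difference of 1091.5 peaks gave p = 0.486 by exact permutation, two-sided (adjusted p = 0.777 over 8 measures). As a share of the list, the windows held 3.70%, 2.70%, 3.55% and 2.92% in DMSO and 3.67%, 2.55%, 3.91% and 2.45% with 3MB-PP1. The shares of replicates 1 and 3 lay at 3.55% to 3.91% and those of replicates 2 and 4 at 2.45% to 2.92%, whatever the treatment. The treatment difference in the share was -0.0737 percentage points (exact permutation p = 0.771, adjusted p = 0.800), made up of 0.163 among odd-numbered and -0.311 among even-numbered libraries. The number showed the same split, with 2537 more peaks among odd-numbered and 354 fewer (-354) among even-numbered 3MB-PP1 libraries. What the odd and even numbers stand for is not stated, and their part in these results was not tested.

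The length covered by window peaks also overlapped between groups. It was 2971 ± 583 kb in DMSO and 2755 ± 861 kb with 3MB-PP1 (SD, n = 4 each; exact permutation p = 0.686, adjusted p = 0.800; 81.1 kb more among odd-numbered and -512.4 kb among even-numbered libraries). As a share of all covered length it was 3.04% ± 0.320 and 3.16% ± 0.691 (exact permutation p = 0.800, adjusted p = 0.800; 0.446 percentage points among odd-numbered and -0.215 among even-numbered libraries).

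**Figure D3:**
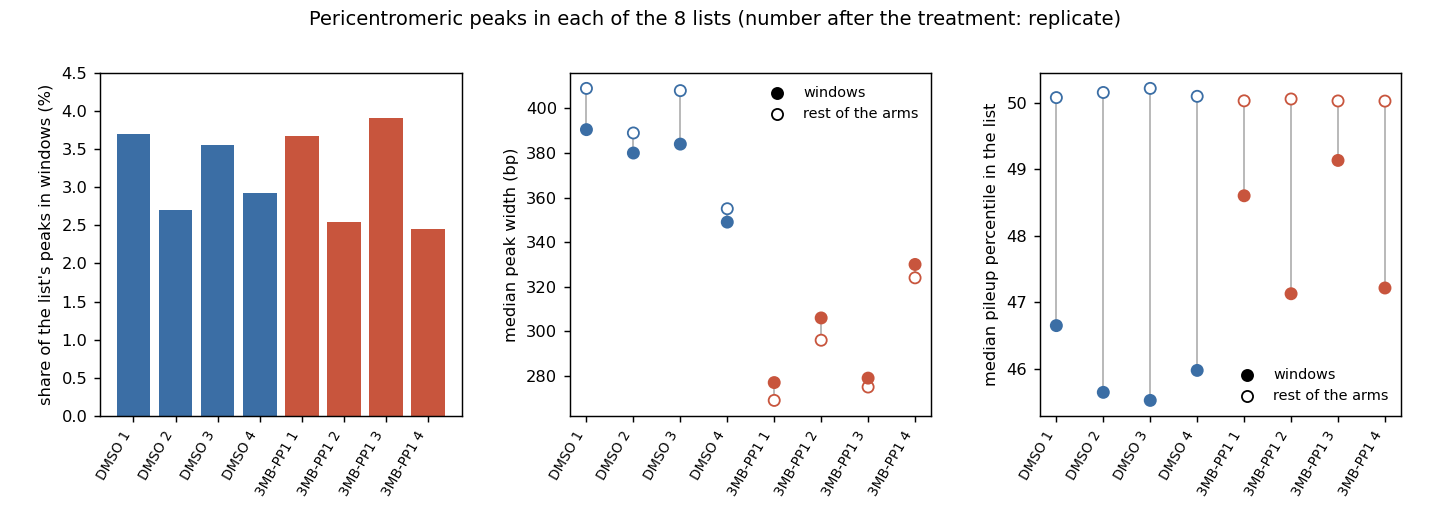
Share of the list's peaks in the windows (bars, percent), median peak width (bp) and median pileup percentile in each of the 8 libraries, with filled points for the windows and open points for the rest of the arms. Window peaks are narrower than the rest in the 4 DMSO libraries and wider in the 4 3MB-PP1 libraries, and their pileup percentile lies below the rest in all 8.

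Peak width separated the groups. Median widths in the windows were 390.5, 380, 384 and 349 bp in DMSO and 277, 306, 279 and 330 bp with 3MB-PP1, so that every 3MB-PP1 library lay below every DMSO library. In the rest of the arms the medians were 409, 389, 408 and 355 bp in DMSO and 269, 296, 275 and 324 bp with 3MB-PP1, again without overlap. The narrower peaks were thus not particular to the windows, and within them the difference was smaller: -77.9 bp in the windows and -99.3 bp in the rest. The median of the windows differed from that of the rest by -18.5, -9, -24 and -6 bp in DMSO replicates 1 to 4 and by 8, 10, 4 and 6 bp with 3MB-PP1. Expressed as the ratio of window to rest, the median width was 0.964 ± 0.0195 in DMSO and 1.02 ± 0.00909 with 3MB-PP1, a difference of 0.0602 (exact permutation p = 0.0286, the smallest that 4 against 4 allows, adjusted p = 0.0762). The ratio differed in the same direction among odd-numbered (0.0742) and even-numbered (0.0462) libraries. It did not keep this direction once peaks with -log10 q under 5 were left out, where it differed by -0.0272 (exact permutation p = 0.0571). The smallest width listed also differed between the groups, at 114 to 135 bp in DMSO and 90 to 109 bp with 3MB-PP1, but when peaks under 135 bp were left out of every list, a limit chosen after seeing the data, the ratio still differed by 0.0476 (exact permutation p = 0.0286). With peaks of at least 300 bp the difference was 0.0358 and the exact permutation p was 0.314.

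Peak height gave a parallel pattern. Pileup, the deposited coverage signal of a peak, has no stated scale between libraries, so each peak was ranked within its own list from 0 to 100. The median percentile of window peaks was 46.6, 45.6, 45.5 and 46.0 in DMSO and 48.6, 47.1, 49.1 and 47.2 with 3MB-PP1. All 8 values were below those of the rest of the arms (50.0 to 50.2), and all 4 3MB-PP1 values were above all 4 DMSO values. These are values over all windows together, and single arms differed. Of 32 arms compared, the window lay below the rest of its arm in all 8 libraries in 17. It lay above in all 8 in 4 arms, both arms of chromosome 2 and the short arms of chromosomes 9 and 20. The others were mixed. The difference from the rest was higher with 3MB-PP1 without overlap in 1 of the 32 arms and lower in 0. Window peaks lay 3.10 ± 1.39 percentile points below the rest (SD, n = 8; exact sign-flip permutation p = 0.0078, adjusted p = 0.0104). The group difference was 2.07 points (exact permutation p = 0.0286, adjusted p = 0.0762), with 2.78 among odd-numbered and 1.36 among even-numbered libraries. None of the 8 treatment measures passed adjustment, for which at least 5 of them would have had to reach the smallest p together.

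The pileup ranks depended on the peaks and on the quantity ranked. Without peaks of -log10 q under 5, after which the windows held 540, 409, 494 and 361 in DMSO and 418, 302, 419 and 245 with 3MB-PP1, the group difference in percentile was -7.78 (exact permutation p = 0.171), and within 2.5 Mb of the centromere point it was 3.26 (exact permutation p = 0.0286). Ranked by fold enrichment over the local background instead of pileup, window peaks lay 5.56 points above the rest (exact sign-flip permutation p = 0.0078), and the group difference was 0.460 points (exact permutation p = 0.857). Window peaks thus ranked below the rest of the arms by pileup and above it by fold in the same lists.

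The strongest peaks of a list were rare in the windows by pileup. The share of window peaks in the top 1% of their list was 0.235%, 0.377%, 0.273% and 0.398% in DMSO and 0.322%, 0.446%, 0.327% and 0.481% with 3MB-PP1, while the rest of the arms stood at 1.01% to 1.03%. The difference between windows and rest was -0.665 percentage points (exact sign-flip permutation p = 0.0078, adjusted p = 0.0104), and by fold enrichment it was 0.643 points in the other direction (exact sign-flip permutation p = 0.0078). Between treatments the groups overlapped (difference 0.0730, exact permutation p = 0.286, adjusted p = 0.571). Within same-numbered pairs the share was higher with 3MB-PP1 in 4 of 4 (exact paired permutation p = 0.125, the smallest that 4 pairs allow). These top peaks numbered only 13 to 32 per library.

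The percentile was also followed by distance from the centromere point. At 0 to 1 Mb the median percentile was 47.7 ± 6.07 in DMSO and 55.8 ± 1.88 with 3MB-PP1, without overlap, from 158 to 330 peaks per library. At 1 to 2 Mb it was 46.4 ± 0.563 and 48.6 ± 1.32, and at 4 to 5 Mb 44.8 ± 0.429 and 46.4 ± 0.478, also without overlap. At 2 to 3 Mb and at 3 to 4 Mb the groups overlapped. The percentile thus did not overlap in 3 of the 5 bins within the limit, against 1 of the 15 beyond it, at 12 to 13 Mb. The width relative to the median of the rest of the arms did not overlap in 2 of the 5 bins and in 0 of the 15 beyond. It was 0.989 ± 0.0289 in DMSO and 1.05 ± 0.0352 with 3MB-PP1 at 2 to 3 Mb, and 0.928 ± 0.0131 in DMSO and 0.981 ± 0.0106 with 3MB-PP1 at 4 to 5 Mb. These bins were described and not tested.

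By chromosome, the windows were compared with 246 tiles of 10 Mb in the rest of the arms. The share of the list's peaks did not overlap between groups and was higher with 3MB-PP1 in 1 of 22 windows, against 7.09% of all windows and tiles, and lower in 0 of 22, against 10.8%. Relative width was higher without overlap in 5 of 22 windows, or 22.7%, against 4.58% of the 262 windows and tiles with at least 20 peaks per list, and lower in 0, against 3.82%. The 5 were the windows of chromosomes 3, 4, 7, 12 and 17. This width is relative to the whole list. Relative to the rest of the same arm, it was higher without overlap in 1 of 32 arms, the long arm of chromosome 17, and lower in 0. The mean of that ratio was higher with 3MB-PP1 in 24 of the 32 arms. Neither arm of chromosome 3 had enough peaks for it. On chromosome 3 the width relative to the list was 0.791 ± 0.0434 in DMSO and 1.04 ± 0.104 with 3MB-PP1, from as few as 28 peaks in a library. On chromosome 12, the fullest window, it was 0.903 ± 0.0414 and 0.988 ± 0.0187. On chromosome 17 it was 1.00 ± 0.0250 and 1.08 ± 0.0233. The pileup percentile was higher without overlap in 1 window, that of chromosome 22 (60.5 ± 1.46 in DMSO and 66.6 ± 1.01 with 3MB-PP1; 2.67% of all windows and tiles), and lower in 0 (1.53%). The share of the list's peaks was tested in all 268 windows and tiles together, and the smallest adjusted p was 0.160.

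The window of chromosome 19 was the one in which the share did not overlap. It held 129, 148, 240 and 314 peaks in DMSO and 442, 348, 436 and 270 with 3MB-PP1, or 0.115% ± 0.0327 and 0.179% ± 0.0213 of the list (exact permutation p = 0.0286, adjusted p = 0.160; 0.0870 points among odd-numbered and 0.0391 among even-numbered libraries). The lowest 3MB-PP1 share, 0.1591%, was barely above the highest DMSO share, 0.1588%, and with all lists reduced to the same length no window kept a share without overlap. This window holds 30 genes with ZNF symbols, pseudogenes and antisense RNAs included. Most lie in a cluster on the short-arm side, whose protein-coding members mostly encode zinc finger transcription factors of the KRAB type. ZNF536 and ZNF536-AS1 lie apart on the long-arm side. A peak overlapped 11 of the 30 in all 8 lists and 6 in none. Of those 6, ZNF729 was protein-coding and the others were pseudogenes. Of the remaining 13, 11 were covered in more 3MB-PP1 than DMSO lists and 0 in fewer. Among all 17323 autosomal genes covered in 1 to 7 lists, the shares were 48.8% and 32.5%. Among the 65 such genes of this window, ZNF genes included, 44 (67.7%) had more 3MB-PP1 lists and 9 (13.8%) fewer. The tilt toward 3MB-PP1 was thus not limited to ZNF genes in this window. Among the 106 such ZNF genes in the rest of the arms, 65 (61.3%) had more 3MB-PP1 lists and 25 (23.6%) fewer, and on chromosome 7 the window held 3 ZNF genes of each kind. This window was singled out for its higher 3MB-PP1 share of peaks, so its gene counts are not independent of that share. ZNF676, ZNF492 and ZNF726 each had a peak in 1 DMSO and 3 3MB-PP1 lists, and ZNF208 in 2 and 4. The mean percentiles of these 4 genes' best peaks ran from 18.0 for ZNF492 to 29.9 for ZNF726, low in their lists. At the ZNF208 promoter printed above the 4 3MB-PP1 peaks had percentiles of 67.8, 34.2, 31.6 and 8.52. The 3MB-PP1 lists were longer on average than the DMSO lists (208539 ± 33293 and 175077 ± 25514 peaks), and the part of list length in these gene counts was not tested.

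Merging the 8 lists gave 19190 regions in the windows of 583075 in all. Their recurrence resembled that of other regions: 5.87% of window regions were present in all 8 lists, against 6.21% in the rest of the arms, and 53.4% in a single list, against 51.8%. Of the 1126 window regions present in all 8, chromosome 20 held 139, chromosome 21 held 119 and chromosome 12 held 103. The gene table used gives gene extents without exons, so a region is placed in or beside a gene and not in an exon, intron or UTR.

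The highest-ranked region was chr21:8213007-8213559, 3.79 Mb from the centromere point on the short arm, in RNA45SN2, a ribosomal RNA precursor gene. It had a percentile of 100 in all 8 lists, and its -log10 q was 331 to 523. The ribosomal RNA genes exist in many copies, so reads from other copies may be counted at this position. Next came chr14:20613124-20614229, over the transfer RNA genes TRP-AGG2-6 and TRT-TGT3-1, with percentiles of 99.97 to 99.99. GZF1, which encodes a zinc finger transcription factor, followed at chr20:23361516-23362990, with 99.85, 99.66, 99.76 and 99.82 in DMSO and 99.83, 99.65, 99.87 and 99.71 with 3MB-PP1. A region in the long non-coding RNA LINC01431 lay beside it, at chr20:23357686-23358455, with 99.65 to 99.84. The fifth, chr15:20340297-20342492, lay outside annotated genes 1.34 Mb from the centromere point, with 98.49, 99.16, 99.28 and 99.83 in DMSO and 99.94, 99.84, 99.96 and 99.81 with 3MB-PP1. In the transfer RNA, GZF1 and LINC01431 regions the groups overlapped. In the fifth, DMSO replicate 4 lay just above the lowest 3MB-PP1 value.

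The regions with the longest covered length included 3 outside genes. At chr4:49510364-49515470, 0.487 Mb from the centromere point, peaks covered 4766, 4124, 3317 and 3396 bp in DMSO and 3465, 3811, 3161 and 3162 bp with 3MB-PP1. The others outside genes were chr22:11053297-11057616 (2610 to 4234 bp over the 8 libraries) and chr18:14170586-14175238 (2736 to 4294 bp), the latter nearest to the pseudogene ANKRD20A5P. GIT1, which encodes a GTPase-activating scaffold protein, held chr17:29588532-29592342 (2092 to 3811 bp). ANG and RNASE4, which encode ribonucleases, shared chr14:20681326-20684834 with 3 transfer RNA genes (3018 to 3494 bp). Covered length overlapped between the groups in each of these 5 regions.

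Regions called in only 1 group were few. In the windows 12 regions (0.0625%) were present in all 4 DMSO lists and no 3MB-PP1 list, against 0.12% of all regions, and 20 (0.104%) were present in all 4 3MB-PP1 lists and no DMSO list, against 0.149%. A region without a call may still have signal below the cut-off for listing. The highest-ranked DMSO-only region was chr21:10342011-10342519, with percentiles of 83.0, 90.0, 90.0 and 90.0 and -log10 q of 1.3 to 2.4, nearest to the pseudogene EIF3FP1. The other 4 highest lay at chr22:19639409-19639841, chr16:34001317-34001534, chr18:13932513-13933123 and chr12:34173388-34173894, all outside genes and nearest to pseudogenes. The share of all window regions placed in this way was not counted. The highest-ranked 3MB-PP1-only region, chr20:29448877-29449209, lay in the DUX4-like pseudogene DUX4L35, with percentiles of 76.2, 69.6, 89.1 and 70.9. It was followed by chr20:23308783-23309141 and chr9:38198850-38199338, both outside genes, then chr8:41898507-41898984 near the ankyrin gene ANK1 and chr22:16991568-16992138 in GAB4. The GAB4 region had percentiles of 72.4, 39.8, 56.6 and 40.5.

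In the 1126 shared regions, percentile and covered length were compared between groups within the fit over all 36170 autosomal regions of this kind. The percentile did not overlap and was higher with 3MB-PP1 in 36 (3.2%, against 2.86% of all) and lower in 20 (1.78%, against 2.56%). Covered length was higher in 9 (0.799%, against 0.379%) and lower in 77 (6.84%, against 10.9%). No region passed the exact permutation test after adjustment for either measure (smallest adjusted p = 0.527 for percentile and 0.254 for covered length). The 56 and 86 window regions with an unadjusted p at or below 0.05 were the same regions without overlap, not further ones. The median log2 difference in covered length was -0.17 in the windows and -0.26 in the rest, a smaller shift in the windows. The ratio of median covered length, windows to rest, was 0.915 ± 0.0285 in DMSO and 0.983 ± 0.0448 with 3MB-PP1, but the groups overlapped (exact permutation p = 0.0857).

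Of the shared regions that did not overlap, the 5 with the largest difference toward 3MB-PP1 all lay in or nearest to pseudogenes. At chr22:19678178-19680661 the percentiles were 21.0, 28.3, 23.8 and 43.3 in DMSO and 68.8, 59.6, 46.6 and 61.2 with 3MB-PP1. At chr9:42387381-42389209, 0.612 Mb from the centromere point, they were 43.1, 58.7, 22.5 and 60.7 in DMSO and 72.8, 78.2, 80.7 and 71.1 with 3MB-PP1. The rest were chr9:39024629-39025759, chr18:14360149-14361712 and chr22:17015313-17015826. The 5 with the largest difference toward DMSO included 4 in protein-coding genes. COL21A1, which encodes a collagen chain, had percentiles of 69.1, 57.9, 75.6 and 62.5 in DMSO and 31.6, 22.9, 19.3 and 55.5 with 3MB-PP1 at chr6:56370170-56371917. KSR1, a scaffold of the MAP kinase pathway, had 59.5, 46.8, 67.3 and 49.2 in DMSO and 43.1, 7.60, 44.6 and 2.25 with 3MB-PP1 at chr17:27559597-27561272. SNTG1, which encodes a syntrophin, had 61.1 to 78.6 and 40.6 to 50.3 at chr8:50056135-50058166. EPHA3, an ephrin receptor gene, had 67.5 to 85.5 and 25.3 to 67.3 at chr3:89114043-89115068. The fifth, chr1:119673355-119674503, lay nearest to the long non-coding RNA LOC124904390. None of these 10 regions passed adjustment. The share of all shared window regions placed at pseudogenes or in protein-coding genes was not counted, so these 10 regions give no comparison of gene kinds.

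Of 748 protein-coding genes with an end in a window, 343 (45.9%) had a peak within 1 kb of an end in all 8 lists, against 61% of all autosomal protein-coding genes, and 170 (22.7%) had none in any list, against 7.99%. The 10 with the highest percentiles were GZF1, USP22, PHF12, PARP2, ROCK1, BCL2L1, PIP4P1, TPX2, KIF21A and DHRS7B, with means of 98.7 to 99.8 over 8 libraries. USP22 encodes a deubiquitinase of the SAGA complex, PHF12 a corepressor subunit, PARP2 a poly(ADP-ribose) polymerase, ROCK1 a kinase of the actin cytoskeleton and BCL2L1 the survival protein Bcl-xL. TPX2, whose product activates Aurora A on spindle microtubules, had percentiles of 98.95, 98.09, 99.08 and 98.88 in DMSO and 99.64, 99.61, 99.73 and 98.63 with 3MB-PP1, with replicate 4 of 3MB-PP1 among the DMSO values. ROCK1 had 99.3, 99.3, 99.4 and 99.3 in DMSO and 99.1, 98.9, 99.5 and 98.7 with 3MB-PP1, again with overlap. PARP2 had 99.12 to 99.36 in DMSO and 99.03 to 99.28 with 3MB-PP1. The strongest gene-end peaks of the windows were thus present and highly ranked under both treatments.

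No window gene had a gene-end peak in all DMSO lists and no 3MB-PP1 list (0.0575% of all genes), and 2 of 748 (0.267%, against 0.125%) had the reverse. GJB2, which encodes a gap junction connexin, had percentiles of 40.8, 49.1, 76.5 and 5.58 in the 3MB-PP1 lists. CECR2, which encodes a bromodomain protein of chromatin remodelling complexes, had 2.83, 50.8, 47.5 and 45.6. The peaks of GJB2 and CECR2 differed widely in rank among the 4 libraries that held them.

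**Figure D4:**
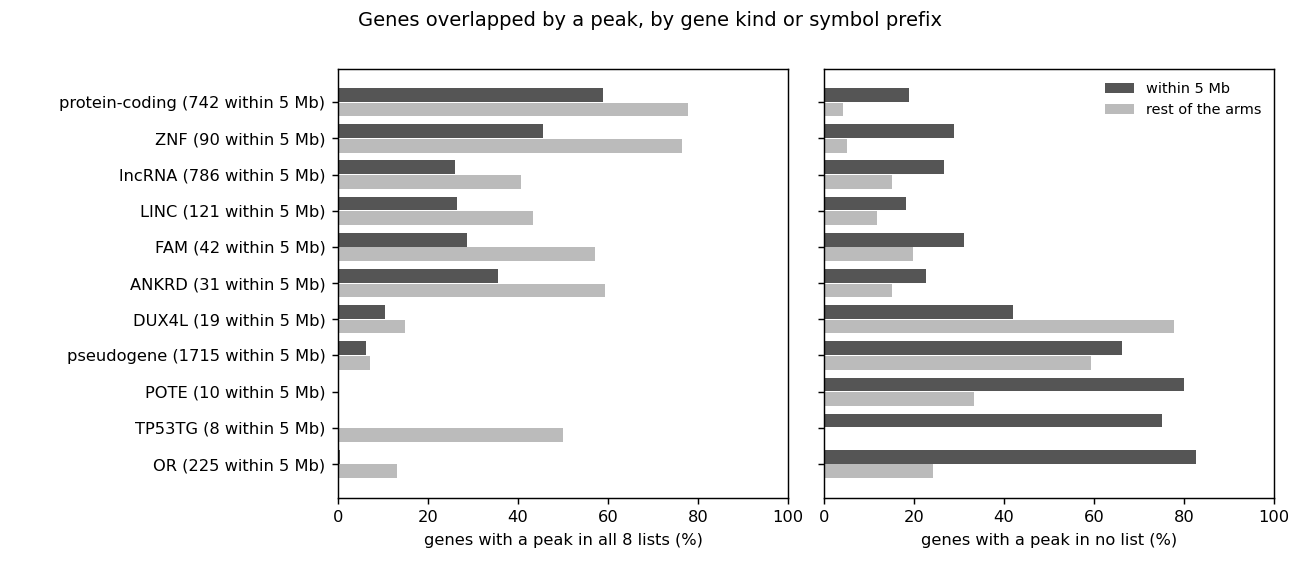
Percent of genes overlapped by a peak in all 8 lists (left x axis) and in no list (right x axis), by gene kind or symbol prefix, with dark bars for genes in the windows and light bars for the rest of the arms. Protein-coding genes and genes with ZNF symbols, pseudogenes among the latter, are covered less often in the windows than elsewhere. Most OR, POTE and TP53TG genes of the windows have no peak in any list.

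Gene families common near centromeres differed in how often a peak overlapped the gene body. Of 742 protein-coding genes in the windows, 58.9% had a peak in all 8 lists, against 77.8% in the rest of the arms. Of 90 genes with ZNF symbols, pseudogenes and antisense RNAs included, 41 (45.6%) did, against 76.5% elsewhere, and 26 had none in any list. Those 26 were mostly pseudogenes, and the protein-coding genes among them were ZNF117 and ZNF729. Chromosome 10 held 18 of the 90, 11 with a peak in all 8 lists, among them ZNF33A with percentiles of 97.9 to 98.7. Chromosome 7 held 17, of which 6 were covered in all 8 and 5 in none. Windows and rest differ in gene length (median 28545 and 20886 bp for ZNF genes). The parts of gene length and of pseudogenes in these shares were not tested.

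Most of the window genes of 3 repeated families, OR, POTE and TP53TG, had no peak in any list. Of 225 OR genes, which encode olfactory receptors and include pseudogenes, 186 had no peak in any list and 1, OR9Q1, had a peak in all 8, against 24.3% and 13.1% of those in the rest of the arms. Chromosome 11 held 162 of them. Of 10 POTE genes, ankyrin-domain genes duplicated near centromeres, 8 had none, against 2 of 6 in the rest of the arms. POTEA had a peak in 7 lists and POTEC in 5. Of 8 TP53TG genes, clustered on chromosome 16, 6 had none, against 0 of only 2 in the rest of the arms. Among all pseudogenes, 66.2% in the windows and 59.3% in the rest had no peak in any list. Of 19 DUX4L pseudogenes 8 (42.1%) had none, against 21 of 27 (77.8%) in the rest of the arms, and 2, DUX4L34 and DUX4L43, had a peak in all 8, with mean percentiles of 92.8 and 77.3. Of 31 ANKRD genes 11 (35.5%) had a peak in all 8, against 51 of 86 (59.3%) in the rest of the arms. Among the 11 were ANKRD39 and ANKRD36 on chromosome 2, with mean percentiles of 97.2 and 96.1. Of 42 FAM genes 12 and of 121 LINC genes 32 had a peak in all 8, or 28.6% and 26.4%, against 57.2% and 43.3% elsewhere.

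Seen from the peaks, the windows were poorer in peaks over protein-coding genes and richer in peaks over pseudogenes. Protein-coding genes were overlapped by 31.5% to 33.4% of window peaks over the 8 libraries, against 47.3% to 49.0% in the rest. Pseudogenes were overlapped by 7.73% to 9.58%, against 2.21% to 2.55%, and no gene by 46.2% to 49.4%, against 36.3% to 37.7%. The libraries did not overlap between locations in any of these 3 shares. By treatment the pseudogene share of window peaks was 8.34% ± 0.489 in DMSO and 8.58% ± 0.978 with 3MB-PP1 (exact permutation p = 0.657). The median percentile of window peaks outside genes was 41.8 ± 1.32 in DMSO and 45.3 ± 1.65 with 3MB-PP1 (exact permutation p = 0.0571), and that of window peaks over protein-coding genes 55.7 ± 3.31 and 54.5 ± 1.78 (exact permutation p = 0.629).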

How the data were processed

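The 8 ATAC-seq libraries were made from 50000 cells each, with more than 95% of cells in mitosis, per the labels' protocols, and were grouped by their titles. Each library had its own deposited peak list. MACS2 and hg38 are named in the submitters' processing notes; the aligner, read filters, shift for Tn5 and treatment of reads with several matches are not given in the sources used here. From the values, the deposited pileup is a coverage signal, the deposited -log10 p and -log10 q describe each peak within its list (largest q 0.1), and the deposited fold column is a ratio over background. The authors' peak values served only within a list.

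A peak was assigned by its midpoint. Treatments were compared on per-library summaries by two-sided exact permutation (70 assignments, smallest p 0.0286) or, for windows against rest, over 256 sign flips, with Benjamini-Hochberg adjustment over 8 and 4 measures. Regions were the merged union of the 8 lists. Genes and promoters came from RefSeq tables of GRCh38.p14. Named items were, by rule, the 5 highest or longest shared regions, up to 5 regions per direction called in 1 group or without overlap, and the 10 highest genes plus those called in 1 group; genes of the families and printed promoters were also picked after their values were seen. The members, lists and tests were chosen with earlier results of these data known. Same-numbered libraries of the 2 groups deviated together (correlations of 0.616, 0.519, 0.341 and 0.440 over 2736 bins of 1 Mb). The paired tests took the numbers to pair the libraries, and the main treatment tests were unpaired. The labels do not say what same-numbered libraries share. Differently numbered libraries of the same parity also correlated (0.323 and 0.289 for numbers 1 and 3, 0.417 and 0.310 for 2 and 4), and pairs of an odd with an even number were negative. These values do not tell pairs by number from a grouping by odd and even number. Alternatives were other window sizes, a minimum -log10 q of 5, equal list length (149172 peaks), a minimum width, another ranking, another overlap, leaving out each library, and the replicate block. The odd and even split, a common smallest width of 135 bp and the relative width and percentile of single windows were added after seeing the data. 1 blood gene of the marker list is not reported here. A genome sequence was not used here, so no sequence or GC content of peaks was computed. Python 3.11.15, numpy 2.4.6, pandas 2.3.3 and scipy 1.17.1 were used, and the statistics were tested on simulated data.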

Additional observations from a re-analysis of the deposited data

Results flagged for a closer look

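The difference in median peak width between the windows and the rest of the arms differed between the treatments. It was -14.4 ± 8.34 bp in DMSO and 7 ± 2.58 bp with 3MB-PP1 (SD, n = 4 each), negative in 4 of 4 DMSO libraries and positive in 4 of 4 3MB-PP1 libraries. The groups differed by 21.4 bp (two-sided, exact permutation p = 0.0286). The corresponding difference in median pileup percentile was -4.19 ± 0.559 in DMSO and -2.02 ± 1.01 with 3MB-PP1, and the groups differed by 2.17 points (exact two-sided permutation p = 0.0286). Both were flagged for this unadjusted p, the smallest that 4 against 4 allows. They largely restate relative width and percentile above, which did not pass adjustment. With -log10 q of at least 5, the width differences overlapped, at -329 to -266.5 bp in DMSO and -310 to -260.5 bp with 3MB-PP1. The percentile differences were then -22.2 to -8.00 in DMSO and -31.2 to -18.1 with 3MB-PP1. Among 24 combinations of group and measure, none held a library far from the other 3.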

How the results depend on the processing

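No treatment measure passed adjustment under any alternative run, and the density, percentile and top 1% differences between windows and rest kept their side of the threshold in each. Of the recomputed values 201 kept direction and call, 24 changed sign, 22 counts moved by over 1.5 times and 1 passed the threshold anew. The replicate block changed no call (number of peaks 1091.5, exact paired permutation p = 0.375; relative width 0.0602, p = 0.125, the smallest that 4 pairs allow).

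With -log10 q of at least 5, the treatment differences were -105 peaks, 0.259 points in share, -0.0272 in relative width and -7.78 in percentile, the width difference between windows and rest was -284 bp (exact sign-flip permutation p = 0.0078), and 2 chromosome windows were lower with 3MB-PP1. Regions then numbered 185 in all 8 lists, with 7 higher in percentile, 0 longer and 20 shorter with 3MB-PP1, and 0 called only with 3MB-PP1. Gene-end peaks were in all 8 lists at 137 genes, in none at 440, in DMSO only at 4 and in 3MB-PP1 only at 0. With equal list lengths the number differed by -40.25, 0 chromosome windows were higher, 40 regions were DMSO only, 62 shared regions were lower in percentile and 1 gene was 3MB-PP1 only. With a minimum width of 300 bp the number differed by -111 and the share by 0.0518. Ranked by fold enrichment, the top 1% share differed by -0.102 between treatments, and windows lay above the rest by 5.56 percentile points and 0.643 points in the top 1%. Within 2.5 Mb the width difference was 12.6 bp. Where 50% of a region had to be covered, 22 regions were DMSO only, 5 3MB-PP1 only and 351 in all 8 lists, of which 10 were higher and 4 lower in percentile and 3 longer and 26 shorter. Gene ends within 2.5 kb left 0 genes in 3MB-PP1 only. Odd-numbered libraries differed by 0.163 points in share and 81.1 kb covered, and even-numbered ones by -354 peaks and -0.215 points in covered share. The counts of regions, genes and chromosome windows under these alternatives were made for the windows alone. No share over all autosomal features stands beside them, so they do not show whether the windows moved differently from the rest. The cause of these shifts was not tested. Fewer peaks entered under the q minimum and the width minimum.

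Leaving out 1 library at a time, the share differed by -0.328 to 0.157 points, the covered length by -577.1 to 63.0 kb and its share by -0.123 to 0.331 points, so these signs rest on single libraries; the number differed by 66.8 to 1944 peaks. Relative width stayed at 0.0526 to 0.0665 and the percentile at 1.70 to 2.37.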
